A study of Mus musculus with 35 samples.

Results

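The dorsal brain (dB) was set against the maxillary prominence (MXP) of the mouse embryo. Libraries were chosen by their title alone, which gave 6 dB libraries and 5 MXP libraries, 11 of the 35 in the series. In each library the FPKM values (fragments per kilobase of transcript, scaled to the mapped fragments of the library) of all transcripts of a gene were added, and differences are given as dB minus MXP on the log2(FPKM + 1) scale, so that a positive value is a higher level in dB. The series profiled RNA of the developing brain, face and limb to ask how genes of the cilium differ between tissues. Each library was made from tissue of several CD1 embryos pooled at E11.5. CD1 is an outbred mouse stock, no allele or agent is named for any group, and where the tissue protocol says brain the library labels say neural tube. The dB pools came from dorsal forebrain and midbrain, so that they join several brain regions with their coverings and vessels, and the MXP pools joined mesenchyme, surface ectoderm, nerves and vessels. The ventral brain (vB, 6 libraries) and the mandibular prominence (MNP, 6 libraries), made in the same way, were compared with them once, at the end. All 35 libraries, those of the frontonasal prominence and the limb included, entered the limma fit behind the p-values of gene levels.

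At this stage the dorsal brain wall is a pseudostratified sheet of dividing radial progenitors that express Sox1 to Sox3 class factors, and Notch signalling holds some of them as progenitors while their neighbours turn on proneural basic helix-loop-helix factors and leave as neurons. The maxillary prominence is a bud of cranial neural crest mesenchyme under an ectodermal sheet. It forms the upper jaw, cheek and secondary palate, and epithelial Fgf, Bmp, Wnt and retinoic acid signals pattern its mesenchyme through Barx, Dlx, Lhx, Msx, Pitx and Tbx factors.

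The libraries fell by tissue. The correlation of log2(FPKM + 1) across genes averaged 0.968 ± 0.0114 (SD, 15 pairs) within dB, 0.969 ± 0.00527 (10 pairs) within MXP and 0.895 ± 0.0132 (30 pairs) between them, where genes are not independent points. The tables hold no read counts, so no counting interval can be given. Cufflinks coverage was 2.88 to 5.52 per FPKM, and each library held 12157 to 12955 genes at 1 FPKM or more. Short transcripts under 200 bases held 28.6% of the FPKM of dB 1 and 19.1% of that of MXP 1 but 0.653% to 10.3% of that of the other 9 libraries. Libraries also differed in the region they held. The library dB 4 was low in cortical factors, with Eomes at 4.45 FPKM against a dB median of 18.1, and had the highest Otx2, at 105 FPKM. The library MXP 5 held the brain factor Nkx2-1 at 7.92 FPKM, whereas the other MXP libraries lay between 0.056 and 0.161 FPKM. The libraries MXP 1 and MXP 5 were further low in Osr2 and Pax1, factors of the palatal and posterior arch mesenchyme, and MXP 1 held the mandibular factor Hand2 at 7.05 FPKM. The part of these differences in the results was not tested, and counts of more than 5 members are given again without these libraries where they move by over 1.5 times.

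Of 13934 genes that averaged 1 FPKM or more in some tissue, 990 (7.10%) were higher in dB and 548 (3.93%) were lower, together 1538, at a limma adjusted p below 0.05 and a difference of at least 2-fold. Without dB 4 and MXP 5, 1048 genes were higher and 547 lower, and without MXP 1 and MXP 5, 1010 were higher and 647 lower. The median difference over all genes was 0.03. In 2101 genes (15.1%) every dB library lay above every MXP library, and in 1261 (9.05%) every dB library lay below. In bulk tissue a lower share of a cell type and less RNA per cell cannot be told apart. The p-values measure only the spread between pools of the same tissue, taken over all 35 libraries. Differences between sequencing runs are part of that spread. Transcription factors were among the genes furthest from 0 on both sides, as the plot of mean levels shows.

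**Figure D1:**
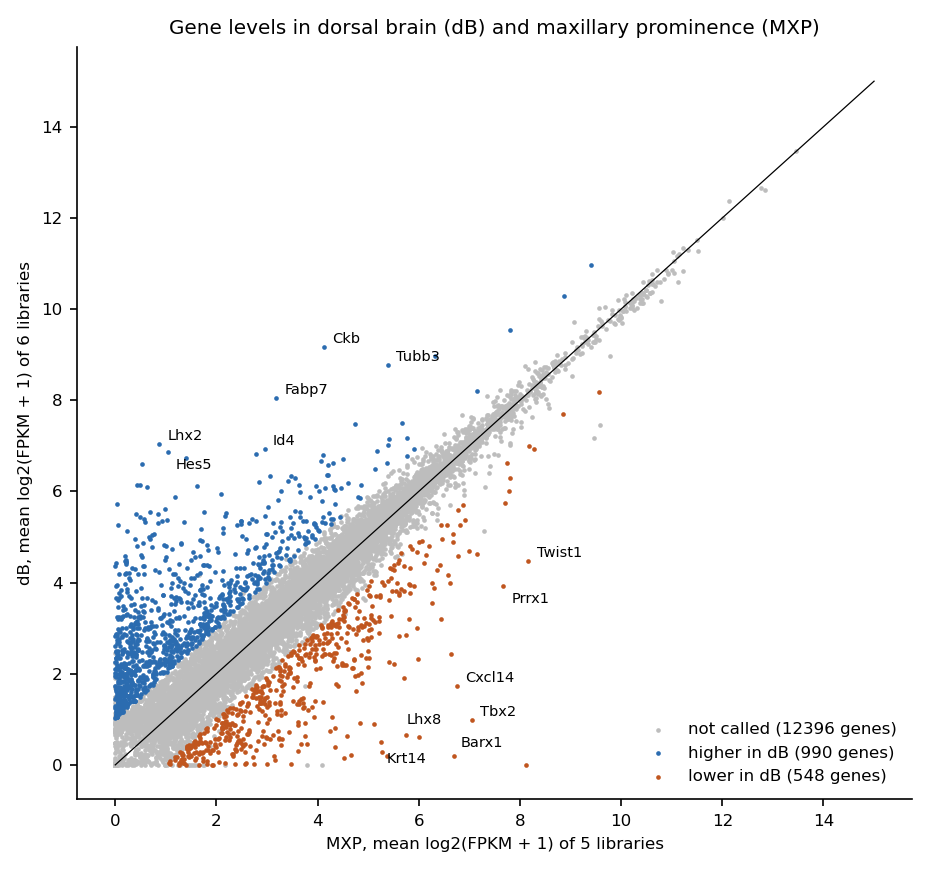
Mean log2(FPKM + 1) of each tested gene over the 5 MXP libraries (horizontal axis) and the 6 dB libraries (vertical axis), with the 990 genes higher and the 548 genes lower in dB coloured and named genes marked. Points on the diagonal have equal means, and Lhx2, Hes5, Barx1, Lhx8, Tbx2 and Krt14 lie near 0 in the tissue where they are lower, whereas Tubb3, Prrx1 and Twist1 lie well above 0 in both.

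The point furthest below the diagonal is Mir762, a short hairpin looked at after its values were seen. It was listed at 0 in all 6 dB libraries and in MXP 3, and at 461 to 6268 FPKM in MXP 1, 2, 5 and 6, so that the groups overlapped at 0.

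The gene furthest above 0 was Lhx2 (chr2:38339281-38369728, mm10), a LIM homeodomain factor needed for cortical and eye fields. It ranged from 59.6 to 187 FPKM in dB, with a median of 163, and had 0.886, 0.409, 0.0268, 2.71 and 0.959 FPKM in MXP 1, 2, 3, 5 and 6. The groups were far apart, and the difference was 6.17 (SE 0.35, adjusted p = 1.2e-15). Next came Zic1, a zinc finger factor of the dorsal neural tube, at 73.7 to 124 FPKM in dB and 0.0188 to 3.45 FPKM in MXP, a difference of 6.08 (SE 0.50, adjusted p = 9.41e-12). The proneural factor Neurog2 (chr3:127633145-127635631) had 25.5, 59.9 and 75.5 FPKM as its lowest, median and highest dB value and at most 0.0467 FPKM in any MXP library, a difference of 5.69 (SE 0.25, adjusted p = 5.54e-18). The other 12 of the 15 genes furthest above 0 with no overlap were Hes5, Igfbpl1, Otx2, Sox3, Stmn3, Dbx1, Zic2, Ckb, Pax6, Nr2e1, Fabp7 and Islr2. They join regional and progenitor factors with the neuronal microtubule protein Stmn3 and the brain creatine kinase Ckb. Ckb was the most abundant of them, at 535 to 633 FPKM in dB and 11.4 to 28.8 FPKM in MXP.

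On the other side stood Barx1 (chr13:48663036-48666507), a homeodomain factor of the mesenchyme of the jaws. Its dB values ran from 0.064 to 0.316 FPKM with a median of 0.105, and MXP 1, 2, 3, 5 and 6 had 112, 75.5, 62.1, 174 and 128 FPKM. No library came near the other group, and the difference was -6.50 (SE 0.34, adjusted p = 1.63e-16). Tbx2 (chr11:85832615-85841948), a T-box repressor, had 0.357, 1.01 and 1.66 FPKM as its lowest, median and highest dB value. In MXP it had 88.1, 139, 113, 153 and 184 FPKM, a difference of -6.06 (SE 0.40, adjusted p = 3.74e-14). Lhx8 (chr3:154306294-154330560), a LIM factor needed for palate growth, reached at most 2.14 FPKM in dB and 53.1 to 77.2 FPKM in MXP, a difference of -5.39 (SE 0.45, adjusted p = 1.01e-11). The transcript AI606473 begins beside it on chromosome 3, at 154330821, and moved with it, by -5.17 (SE 0.34, adjusted p = 5.35e-14). The rest of the 15 included Cxcl14, Tbx3, Krt14, Osr2, Pax1, Capn6, Lhx6, Slitrk6, Aldh1a2 and Krt5. Among these, Osr2 and Pax1 varied most within MXP, with 8.07 to 48.7 and 5.69 to 53.7 FPKM, and were lowest in MXP 5 and next lowest in MXP 1.

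Genes of neural progenitors and neurons were higher in dB almost throughout. Of 23 tested neural progenitor and radial glia genes 19 were higher and none was lower, with a median difference of 2.64 against 0.03 over all genes. Sox1, Sox2 and Sox3, which hold progenitors undifferentiated, differed by 4.57, 4.05 and 5.46. Fabp7, the radial glial fatty acid binding protein, had 179 to 317 FPKM in dB and 4.32 to 16.3 FPKM in MXP. The progenitor genes that did not pass were Slc1a3 (0.79), Prom1 (0.64), Qk (0.41) and Hes1 (0.33), each of which both tissues expressed. Of 24 proneural and early neuronal regulators 21 were higher and none was lower, with a median of 2.70. Nhlh2 and the repressor Scrt2, which act in newborn neurons, differed by 4.36 and 3.99.

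Pan-neuronal genes followed, with 35 of 40 higher, none lower and a median of 2.51. Tubb3, the neuronal beta tubulin, had 321, 468 and 559 FPKM as its lowest, median and highest dB value and 40.9, 48.5, 48.4, 24.2 and 48 FPKM in MXP 1, 2, 3, 5 and 6. Its level in MXP was thus well above 0 in every library while the groups stayed apart, and the difference was 3.38 (SE 0.28, adjusted p = 1.27e-11). Ina and Nsg2, a neurofilament protein and an endosomal protein of neurons, differed by 4.63 and 4.71. Gap43, the growth cone protein, had 43.6 to 74.3 FPKM in dB and 41.6 to 48.7 FPKM in MXP and did not pass (difference 0.52, adjusted p = 0.0945). Of 30 synaptic vesicle and secretory genes 18 were higher, among them the granin family member Scg3 (3.89), the vesicular glutamate transporter Slc17a6 (3.23) and synaptophysin, Syp (2.90). The single lower member was Rest, which was counted in this list but is not a vesicle or secretory gene. It represses neuronal genes outside neurons and was at 2.42 to 7.09 FPKM in dB and 11.3 to 20.4 FPKM in MXP (difference -1.42, SE 0.29, adjusted p = 0.000192). Voltage-gated channel genes were less uniform, with 9 of 27 higher and 2 lower. Kcnh2 (2.15) was among the higher, and the calcium channel subunits Cacna1g (-1.43) and Cacna1c (-1.34) were lower.

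Regional brain factors varied between dB libraries. Of 31 dorsal telencephalon factors 26 were higher and 3 lower, with a median of 3.11. Eomes and Tbr1, of intermediate progenitors and early cortical neurons, were lowest in dB 4, at 4.45 and 3.01 FPKM against medians of 18.1 and 16.7. The 3 lower members included Bcl11b (-1.71) and Bcl11a (-1.11), factors of later cortical neurons that the facial mesenchyme or ectoderm also uses. Diencephalon and midbrain factors had 20 of 30 higher and 3 lower. Otx2 (5.66), Dbx1 (5.21), Tal2 (4.34) and Fgf15 (4.09) led, and Irx5 (-1.26), Gata3 (-1.23) and Irx3 (-1.14) were lower.

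Genes of the roof plate, cortical hem and choroid plexus split, with 13 of 29 higher and 6 lower. Wnt8b, a hem Wnt, was at 15.3 to 28.2 FPKM in dB and listed at 0 in 4 of 5 MXP libraries, with 0.0144 FPKM in MXP 2. The 6 lower members were Wnt5a (-2.61), Mab21l2 (-2.53), Msx1 (-1.97), Bmp4 (-1.69), Id1 (-1.53) and Bmp7 (-1.04), which facial mesenchyme and ectoderm share with the dorsal midline. Ventral brain factors had 11 of 27 higher and 7 lower. Olig2 (2.72), Nkx2-2 (2.10) and Nkx6-2 (2.04), which pattern ventral progenitors, were higher at levels of at most 13.8 FPKM. The 7 lower members included Lhx8, Lhx6, Dlx1, Dlx2, Dlx5 and Dlx6, each also on the facial list, so that both lists count them. Without dB 4 and MXP 5, or without dB 1 and MXP 1, 4 ventral factors were lower, and without MXP 1 and MXP 5, 3.

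**Figure D2:**
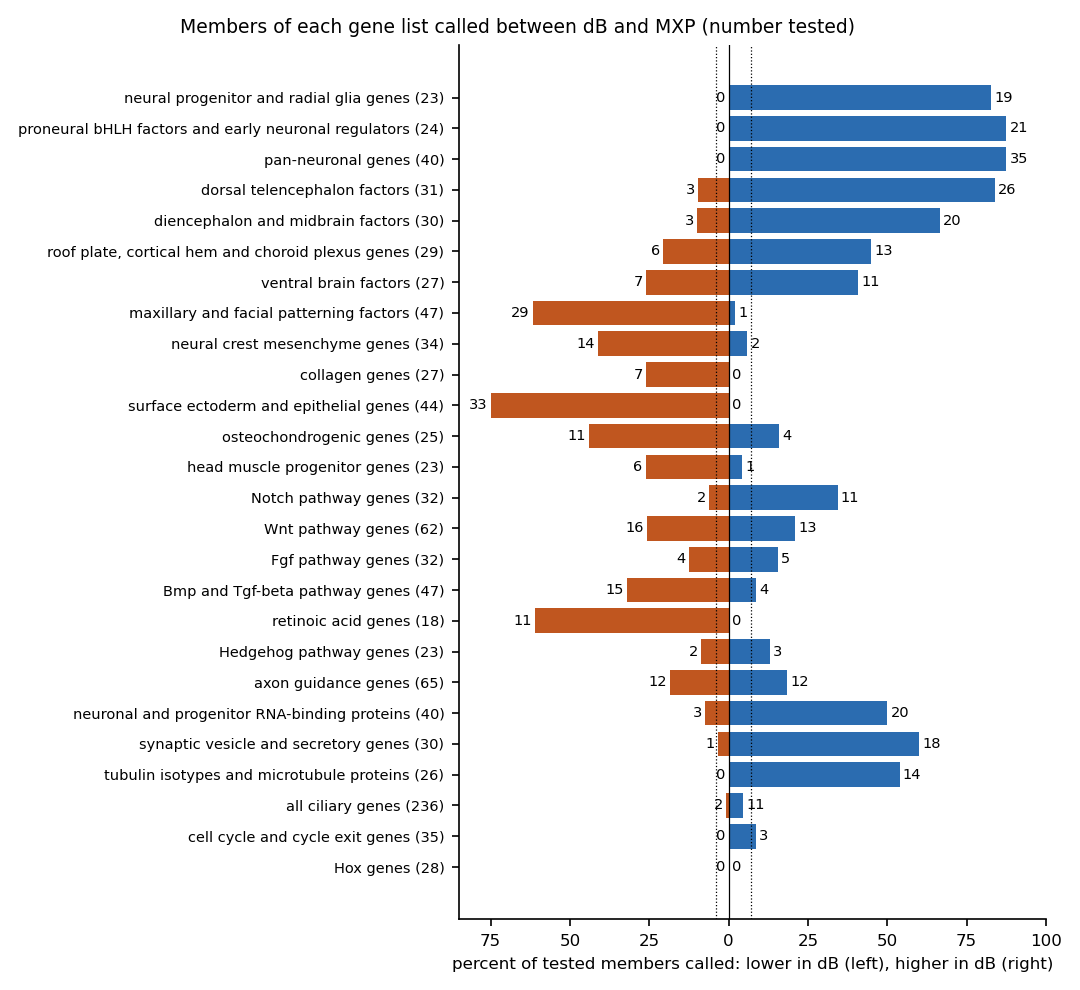
Percent of the tested members of each gene list called lower in dB (bars to the left) and higher in dB (bars to the right), with the number called at the end of each bar, the number tested in brackets and dotted lines at the 3.93% and 7.10% of all genes. The neural lists have their long bars on the right, the facial, epithelial and retinoic acid lists on the left, and the ciliary list lies within both dotted lines.

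Facial patterning factors lay on the MXP side. Of 47 maxillary and facial patterning factors 29 were lower in dB and 1, Foxd1, was higher, with a median of -1.56, and 26 were lower without dB 4 and MXP 5 and 25 without MXP 1 and MXP 5. After Barx1, Tbx2 and Lhx8 came Tbx3, at 26.2 to 46.1 FPKM in MXP and at most 0.313 FPKM in dB (difference -4.99, SE 0.26, adjusted p = 1.63e-16). Foxd1 had 6.85 to 15.2 FPKM in dB and 1.17 to 5.28 FPKM in MXP (difference 1.79, SE 0.36, adjusted p = 0.000128). Msx2 and Shox2 were the most abundant members that did not pass, with differences of -0.67 and 0.22. Hand2, a mandibular factor, did not pass, with 7.05 FPKM in MXP 1 and at most 0.41 FPKM in the other 10 libraries.

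General mesenchyme genes were lower in part, 14 of 34, while 2 were higher. Prrx1, a homeodomain factor of limb and head mesenchyme, had 7.46, 15.1 and 21.5 FPKM as its lowest, median and highest dB value and 143, 234, 207, 208 and 229 FPKM in MXP. All MXP libraries lay above all dB libraries, and the difference was -3.74 (SE 0.29, adjusted p = 2.40e-12). Twist1 (-3.69), Twist2 (-3.66) and the matrix protein Postn (-3.80) had like differences. Every dB library held Prrx1 and Twist1, the latter at 13.1 to 33.2 FPKM, and the part of head mesenchyme in the dB values was not tested. The 2 higher members were Cdh2 (1.57), the cadherin of neuroepithelium as well as of mesenchyme, and Zeb1 (1.33). Sparc (0.49, adjusted p = 0.0758) did not pass. Of 27 collagens 7 were lower and none was higher. The abundant fibrillar chains Col1a1 (-0.13), Col1a2 (-1.23) and Col3a1 (-0.35) did not pass, with adjusted p of 0.912, 0.0889 and 0.716, although Col1a2 passed (adjusted p = 0.00575) in a limma fit of the dB and MXP libraries alone, while the 3 collagen VI chains Col6a1 (-1.79), Col6a2 (-1.58) and Col6a3 (-1.49) were lower. Of 25 osteochondrogenic genes 11 were lower and 4 higher. Runx2, the osteoblast factor, was at 0.185 to 1.21 FPKM in dB and 5.81 to 25.5 FPKM in MXP (difference -3.11), and Sox9, which chondrocytes share with neural progenitors, was higher in dB (1.46, SE 0.37, adjusted p = 0.0018).

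Epithelial genes were the most uniform of the facial lists. Of 44 surface ectoderm and epithelial genes 33 were lower in dB and none was higher, with a median of -1.92. Krt14 (chr11:100203162-100207510), a basal keratin, had 0.179, 0.394 and 0.784 FPKM as its lowest, median and highest dB value and 27.8, 68.6, 54.3, 16.2 and 40 FPKM in MXP. The lowest MXP library, MXP 5, was still far above every dB library, and the difference was -4.74 (SE 0.40, adjusted p = 1.36e-11). Its partner Krt5 differed by -3.93 (SE 0.52, adjusted p = 2.18e-07). Trp63, the master factor of stratified epithelium, had at most 1.04 FPKM in dB and 26.3, 25.7, 18, 14.4 and 14.7 FPKM in MXP (difference -3.52, SE 0.21, adjusted p = 5.06e-15). The cell adhesion genes Epcam and Cdh1 had 16.5 to 34 and 8.1 to 18.8 FPKM in MXP against 3.21 to 4.06 and 1.24 to 1.95 FPKM in dB. The summed level of the list was 358 to 640 FPKM in MXP and 63.2 to 104 FPKM in dB.

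**Figure D3:**
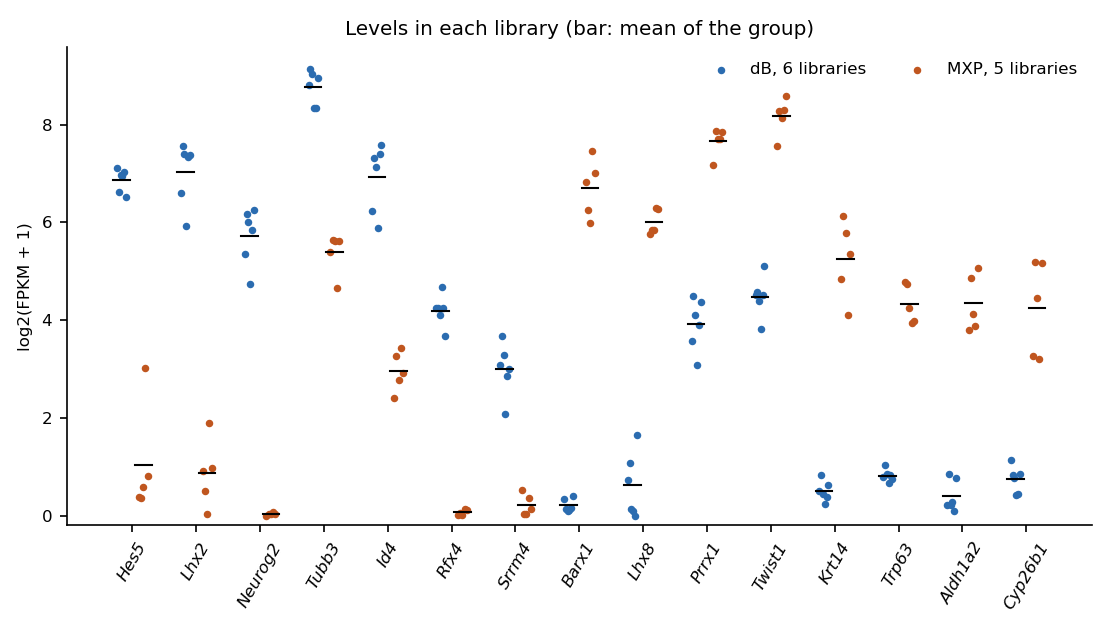
Log2(FPKM + 1) in each of the 6 dB and 5 MXP libraries (points) for 15 genes named in the text, with the group mean as a bar. For each gene all libraries of one tissue lie above all libraries of the other, and dB 4 and MXP 5 are the libraries nearest the other group for Lhx2.

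The letters CAGGTG, an E-box that Snail and Zeb repressors are known to bind in epithelial genes, were counted on both strands of the 250 bases before each RefSeq start (GRCm38.p6). They occurred in 17.2% of 32851 promoters, in 23.6% of those of genes higher in dB, in 16.6% of those of genes lower in dB and in 14.5% of those of genes not called. Of 29 epithelial promoters 14 (48.3%) held them. Epcam and Krt5, an adhesion gene and a keratin described above, are printed as 2 of the 14, with each match in capitals; a match is a description of the letters and not a binding site.
Epcam, chr17:87635729-87635978 on the plus strand: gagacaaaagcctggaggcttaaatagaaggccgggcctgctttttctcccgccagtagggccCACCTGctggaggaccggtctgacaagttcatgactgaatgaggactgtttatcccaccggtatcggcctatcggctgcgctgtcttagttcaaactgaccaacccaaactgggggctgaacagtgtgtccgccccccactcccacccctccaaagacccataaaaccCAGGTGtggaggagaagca
Krt5, chr15:101712906-101713155 on the minus strand: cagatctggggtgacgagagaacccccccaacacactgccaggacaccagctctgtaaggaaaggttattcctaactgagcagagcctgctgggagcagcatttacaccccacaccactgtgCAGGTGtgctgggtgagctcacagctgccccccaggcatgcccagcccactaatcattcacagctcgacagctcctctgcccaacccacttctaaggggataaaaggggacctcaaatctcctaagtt
The matches begin at positions -187 and -19 from the start in Epcam and at -128 in Krt5. Of the factors that read such letters, Zeb1 was higher in dB, as given above, and Snai1 (-1.91) and Snai2 (-3.15) were lower.

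Pathway genes differed in which members each tissue used. Of 32 Notch pathway genes 11 were higher in dB and 2 lower. The ligands Dll1 and Dll3 differed by 4.06 and 4.32, with Dll1 at 18.4 to 30.3 FPKM in dB and at most 1.2 FPKM in MXP, and Jag2, another ligand, was lower (-1.14). The glycosyltransferase Mfng, which modifies Notch receptors, differed by 3.29. Rbpj, the DNA-binding partner of all Notch receptors, and the protease Adam10 did not pass, with differences of 0.03 and 0.19. The targets went both ways. Hes5 (chr4:154960923-154962371), the repressor that keeps progenitors from differentiating, had 90.3, 124 and 138 FPKM as its lowest, median and highest dB value and 0.308, 0.284, 0.503, 7.13 and 0.759 FPKM in MXP (difference 5.83, SE 0.55, adjusted p = 2.04e-10). Hey2 had 3.62 to 4.94 FPKM in dB and 9.7, 58.8, 45.2, 7 and 53.1 FPKM in MXP (difference -2.41, SE 0.54, adjusted p = 0.000597). MXP 1 and MXP 5 were the low MXP libraries for Hey2, yet above every dB library.

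Both promoters hold the letters GTGGGAA, the core of the Rbpj motif, and are printed because the 2 targets moved in opposite directions.
Hes5, chr4:154960673-154960922 on the plus strand: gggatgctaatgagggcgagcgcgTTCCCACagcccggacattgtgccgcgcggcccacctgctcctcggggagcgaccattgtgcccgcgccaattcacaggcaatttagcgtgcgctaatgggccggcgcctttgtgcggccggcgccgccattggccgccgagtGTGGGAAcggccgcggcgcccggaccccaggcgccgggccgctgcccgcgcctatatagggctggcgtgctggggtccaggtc
Hey2, chr10:30842784-30843033 on the minus strand: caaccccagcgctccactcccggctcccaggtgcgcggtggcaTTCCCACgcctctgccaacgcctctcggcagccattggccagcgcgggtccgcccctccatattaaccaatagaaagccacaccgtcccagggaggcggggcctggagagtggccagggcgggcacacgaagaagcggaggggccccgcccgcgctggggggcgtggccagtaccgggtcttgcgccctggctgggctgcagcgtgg
In these sequences capitals mark the matches on either strand, at -226 and -83 in Hes5 and at -207 in Hey2. Of all 32851 promoters 1779 (5.42%) held a match. Of the 33 promoters of Notch pathway genes 3 (9.09%) did, those of Hes5, Hey2 and Lfng.

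Wnt pathway genes were split by ligand. Of 62 genes 13 were higher in dB and 16 lower. Wnt8b (4.36) and Wnt1 (2.34), ligands of the dorsal midline, were higher, and Wnt9b (-3.20), Wnt6 (-2.85), Wnt5a (-2.61) and Wnt10b (-2.46), of ectoderm and facial mesenchyme, were lower. Wnt1 was at 1.78 to 7.07 FPKM in dB and listed at 0 in 4 of 5 MXP libraries. The nuclear effectors parted as well. Tcf7l2 had 42.1 to 88.1 FPKM in dB and 6.22 to 15.7 FPKM in MXP (difference 2.32, SE 0.22, adjusted p = 1.82e-10), whereas Lef1 had 11.9 to 18.4 FPKM in dB and 40.5, 137, 87.4, 41.5 and 126 FPKM in MXP (difference -2.28, SE 0.26, adjusted p = 9.38e-09). Wls, which carries Wnt ligands to the surface, did not pass (-0.05, adjusted p = 0.906).

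Retinoic acid genes stood on the face side without exception among the calls. Of 18 tested genes 11 were lower in dB and none was higher, with a median of -1.44. The synthesising enzyme Aldh1a2 had 0.0687 to 0.812 FPKM in dB and 12.9, 28.1, 16.5, 13.7 and 32.2 FPKM in MXP (difference -3.94, SE 0.48, adjusted p = 3.50e-08). The degrading enzymes Cyp26b1 (-3.51) and Cyp26c1 (-2.98) moved the same way, Cyp26c1 being listed at no more than 0.0549 FPKM in any dB library. Among receptors, Rarg was furthest from 0, at 3.92 to 8.73 FPKM in dB and 49.9 to 75.2 FPKM in MXP (difference -2.97, SE 0.35, adjusted p = 2.27e-08). The binding proteins Crabp1 and Crabp2 were abundant in both tissues and did not pass (-0.64 and -0.30).

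Of 47 Bmp and Tgf-beta genes 15 were lower in dB and 4 higher. Bmp4 (-1.69), the target Id1 (-1.53) and the inhibitor Nbl1 (-2.91) were lower. Bmp6 (1.11), the inhibitor Nog (1.48) and Id4 (3.97) were higher. Id4 had 58.3 to 190 FPKM in dB and 4.31 to 9.7 FPKM in MXP while Id3, of the same family, was at 125 to 264 and 198 to 276 FPKM and did not pass. Of 32 Fgf genes 5 were higher and 4 lower. Fgf15 (4.09), Fgf17 (2.68) and the receptor Fgfr3 (3.47) were higher, and Fgf10 (-2.55) with the response genes Spry4 (-1.46), Etv4 (-1.29) and Dusp6 (-1.16) was lower. Of 23 Hedgehog genes 3 were higher and 2 lower. Shh was at 1.9 to 10.2 FPKM in dB and 0.877 to 2.96 FPKM in MXP (difference 1.22, SE 0.39, adjusted p = 0.0146), and its target Gli1 was lower in dB (-1.27, SE 0.30, adjusted p = 0.000887). Neither Shh nor Gli1 passed in replicates 4 to 6 (limma adjusted p = 0.507 and 0.148). The same held in a limma test against 1.5-fold (adjusted p = 0.440 and 0.130). Axon guidance genes had 12 of 65 higher and 12 lower, with Sema5b (3.37), Robo3 (3.16) and Dcc (2.89) on the brain side and Sema3d (-2.36), Ephb3 (-2.17) and Sema3a (-2.01) on the face side. Cadherins, 8 of 27 higher and 7 lower, ran from Cdh8 (2.80), Pcdh8 (2.74) and Cdh2 in dB to Cdh1 (-2.29), Cdh3 (-2.23) and Cdh11 (-1.62) in MXP.

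RNA-binding proteins that regulate splicing differed in both directions. Of 40 neuronal and progenitor RNA-binding proteins 20 were higher in dB and 3 lower, with a median of 0.94. Celf3 (4.74) and the Hu proteins Elavl3 (4.46), Elavl4 (3.58) and Elavl2 (3.19), all of neurons, led. Srrm4, which promotes neuronal microexons, had 3.22, 7.25 and 11.8 FPKM as its lowest, median and highest dB value and 0.435, 0.0171, 0.0236, 0.288 and 0.0968 FPKM in MXP (difference 2.78, SE 0.25, adjusted p = 5.06e-11). The 3 lower members were Esrp1 (-2.47), Esrp2 (-1.97) and Mbnl2 (-1.21), where Esrp1 and Esrp2 are the splicing regulators of epithelial cells. Ptbp1 had 131 to 191 FPKM in dB and 181 to 277 FPKM in MXP, a difference of -0.58 (adjusted p = 0.00374) that was below 2-fold.

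The transcript composition of some genes also differed. For each of 11168 transcripts in 5070 genes of at least 5 FPKM in every library, the share of the gene's FPKM was compared. In all, 158 transcripts (1.41%) differed by at least 20 percentage points at an adjusted p below 0.05, in 96 genes. Of these genes 80 did not differ as a whole, 11 were higher and 5 lower in dB, and in 46 the most abundant transcript was another one in each tissue. Shares are Cufflinks estimates for UCSC transcripts, and no read over a junction was counted.

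The furthest exchange was in Prom1 (prominin-1), a membrane protein of the apical surface and cilium of progenitors. Its transcript uc008xif.2 made up 19.8% ± 12.2 (SD, n = 6) of the gene in dB and 95.2% ± 3.42 (n = 5) in MXP (adjusted p = 9.17e-06). The transcript uc008xig.2, 27 bases longer, took 46.1% in dB and 1.32% in MXP, while the gene as a whole differed by 0.64, short of 2-fold. Uap1, the enzyme that makes UDP-N-acetylglucosamine, was at 80.6% ± 4.28 against 9.21% ± 2.25 for uc007dly.1, which is 51 bases shorter than the transcript that led in MXP. In Golim4, a Golgi protein, uc008png.1 held 29.8% ± 6.56 in dB and 91.8% ± 4.55 in MXP, and in Cttn, the actin-binding protein cortactin, uc009kqh.2 held 30.8% ± 5.52 and 79.8% ± 1.60. The other 4 of the 8 largest were in Mbd2 (55.4% against 1.68%), Rgma (63.4% against 11.1%), Net1 (27.8% against 78.5%) and Tcf7l2 (51.3% against 0.867%), and there the exchanged transcripts began or ended at other bases. No dB library overlapped an MXP library in any of the 8.

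**Figure D4:**
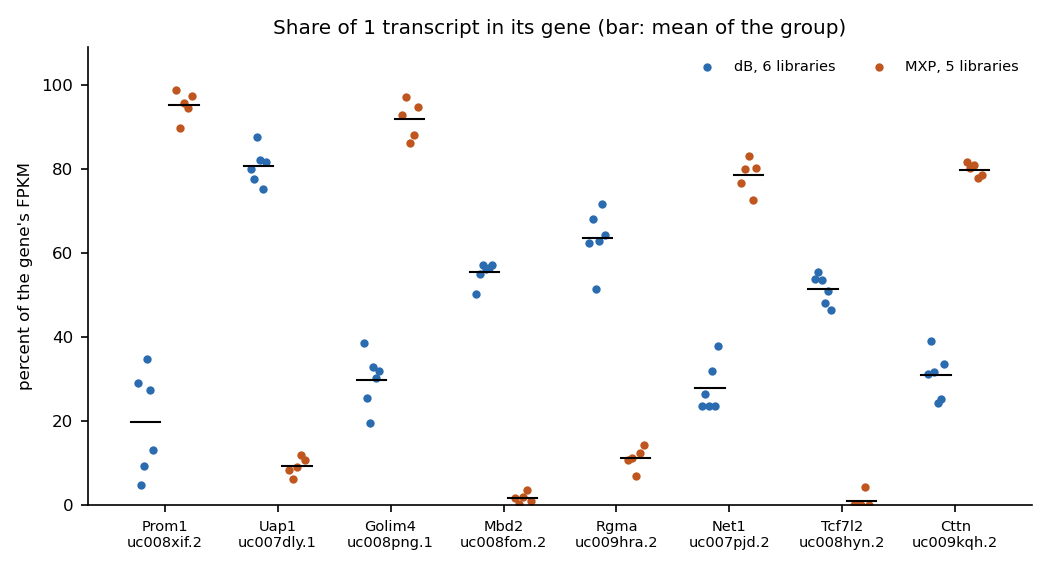
Share of the gene's FPKM (percent) taken by the transcript of largest difference in 8 genes, with 1 point for each of the 6 dB and 5 MXP libraries and a bar at the group mean. The libraries of the 2 tissues do not overlap for any of them, and Prom1 has the widest spread within dB.

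Shares of a gene's transcripts add up to the whole, so in a gene with 2 transcripts 1 change mirrors the other. In 60 genes 1 transcript had a higher share in dB and another a lower share, both past the same limits. In 38 of them both transcripts began and ended at the same bases, and in 33 of the 38 (86.8%) their lengths differed by a multiple of 3, against 750 of 1328 (56.5%) pairs of leading transcripts with shared ends among the tested genes. GENCODE M21 (GRCm38) was searched for a coding exon of exactly that length that some transcripts of the gene skip. The match rests on the length alone. It gave a single exon in 22 genes. All 9 such exons of 36 bases or fewer, a limit set after their lengths and shares were seen, belonged to the transcript with the higher share in dB, and of the 13 longer ones 5 belonged to the dB transcript and 8 to the MXP transcript. The following exons, in capitals, are shown with 15 coding bases on each side because they are the stretches that the exchanged transcripts would differ by.
Ap1s2, 9 bases at chrX:163931363-163931371 on the plus strand: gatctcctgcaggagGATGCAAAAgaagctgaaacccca
Sh3glb2, 15 bases at chr2:30346059-30346073 on the minus strand: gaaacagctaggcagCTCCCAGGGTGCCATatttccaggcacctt
Fam168a, 27 bases at chr7:100818736-100818762 on the plus strand: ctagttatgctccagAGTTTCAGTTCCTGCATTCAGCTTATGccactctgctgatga
Prom1, 27 bases at chr5:44058626-44058652 on the minus strand: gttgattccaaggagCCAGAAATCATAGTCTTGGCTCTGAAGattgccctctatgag
Cadm1, 33 bases at chr9:47829377-47829409 on the plus strand: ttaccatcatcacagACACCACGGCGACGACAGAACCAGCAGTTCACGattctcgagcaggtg
Uap1, 51 bases at chr1:170147996-170148046 on the minus strand: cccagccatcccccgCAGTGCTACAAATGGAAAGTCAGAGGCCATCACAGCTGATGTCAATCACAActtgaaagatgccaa
Golim4, 84 bases at chr3:75902401-75902484 on the minus strand: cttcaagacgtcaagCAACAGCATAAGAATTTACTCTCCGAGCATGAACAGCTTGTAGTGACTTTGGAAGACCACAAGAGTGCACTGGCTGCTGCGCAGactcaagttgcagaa
Cttn, 111 bases at chr7:144450978-144451088 on the minus strand: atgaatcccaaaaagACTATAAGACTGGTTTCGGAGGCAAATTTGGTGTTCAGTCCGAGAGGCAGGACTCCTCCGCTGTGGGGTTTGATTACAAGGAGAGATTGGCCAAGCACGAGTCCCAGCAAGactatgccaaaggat
The upper 5 belong to the dB transcript and the last 3 to the MXP transcript. They keep the reading frame, with 3 codons in Ap1s2, an adaptor subunit of clathrin vesicles, and 37 in Cttn, the length of a cortactin repeat. The Ap1s2 transcript with the 9 bases held 32.4% ± 11.1 of the gene in dB and 0.000343% in MXP, and in Cadm1, an adhesion molecule of synapses and epithelia, the transcript with the 33 bases held 66.4% ± 5.42 in dB and 40.8% ± 6.44 in MXP. In Sh3glb2 the longer transcript held 26.4% ± 3.94 and 4.46% ± 5.10, and in Fam168a 36.5% ± 9.31 and 8.55% ± 3.94.

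Tubulins and microtubule proteins were higher in dB, 14 of 26 with none lower. Besides Tubb3, the neuronal proteins Stmn3 (5.33), Stmn4 (4.26) and Dcx (3.63) differed most. The summed FPKM of the list was 4747 to 6269 in dB and 3071 to 3210 in MXP. Tubb5, a beta tubulin of dividing cells, did not pass (0.21, adjusted p = 0.211).

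Ciliary genes were mostly not called. They were counted over lists drawn up here by compartment, which are not the study's curated set of ciliary genes. The shares cannot be set against those of the study. Of 236 tested genes of the cilium 11 (4.66%) were higher in dB and 2 (0.847%) were lower, against 7.10% and 3.93% of all genes, and the median difference was 0.09. Their summed level was 3338 to 3667 FPKM in dB and 3116 to 3377 FPKM in MXP. No gene was called among the 6 of IFT-A and 17 of IFT-B, which carry cargo along the axoneme, the 14 motor genes, the 16 BBSome genes, the 52 of basal body and centriole or the 18 tubulin-modifying enzymes. Over these 122 genes, each counted once, limma gave an unadjusted p below 0.05 in 31 and an adjusted p below 0.05 in 24. Differences lay between -0.90 and 0.89. These lists were joined because they held no call, so the absence of larger called differences follows from the choice. Without MXP 1 and MXP 5, 1 IFT-B gene was higher and 1 basal body gene lower. Wdr35 of IFT-A had 7.97 to 10.3 FPKM in dB and 7.75 to 9.14 FPKM in MXP. Kifap3, the accessory subunit of kinesin-2, had 20.2 to 30.6 and 34.3 to 48.1 FPKM, a difference of -0.74 (SE 0.12, adjusted p = 1.07e-05) short of 2-fold.

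The 13 genes called were regulators, axoneme genes and membrane or transition zone genes. Of 15 multiciliogenesis and Rfx factors 6 were higher, Rfx4, Gm606, Foxj1, Ccno, Foxn4 and Mcin. Rfx4 (chr10:84756048-84906538), a brain member of the family that controls ciliary genes, had 11.7, 17.9 and 24.6 FPKM as its lowest, median and highest dB value and 0.0121, 0.0333, 0.0124, 0.096 and 0.0837 FPKM in MXP (difference 4.13, SE 0.21, adjusted p = 7.57e-17). Foxj1, the factor of motile cilia, had 2.83 to 7.41 FPKM in dB and 0.119 to 0.533 FPKM in MXP (difference 2.20, SE 0.17, adjusted p = 2.16e-12). Both groups stayed apart in each. Of 58 motile axoneme genes only 27 reached a mean of 1 FPKM in some tissue and were tested. Of these 27, 3 were higher, Lrrc23 (1.38), the radial spoke gene Rsph1 (1.13) and Spef1 (1.09). Spef1 overlaps Cdc25b and Cenpb, so that its reads may be shared. Tmem107 of the transition zone (1.06) and Tub (1.25), which carries receptors into cilia, completed the higher genes.

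The 2 lower genes were Pkp3 and Rab34. Pkp3 (chr7:141078229-141090510), a plakophilin of desmosomes, had 0.355, 0.795 and 0.898 FPKM as its lowest, median and highest dB value and 6.39, 6.52, 5.87, 3.99 and 3.98 FPKM in MXP (difference -1.87, SE 0.18, adjusted p = 2.29e-10). It is also an epithelial gene, and the epithelial list moved the same way. The part of ectoderm in its difference was not tested. Rab34 (chr11:78188427-78192193), a GTPase of ciliary membrane formation, had 15, 19.2 and 22.9 FPKM as its lowest, median and highest dB value and 40.7, 45.8, 39.9, 41.5 and 44.1 FPKM in MXP (difference -1.11, SE 0.13, adjusted p = 3.28e-08). Arl13b (-0.62, SE 0.10, adjusted p = 7.09e-06) and Tulp3 (-0.78, SE 0.17, adjusted p = 0.000362), which brings membrane proteins and Arl13b into cilia, were lower in dB in every library by less than 2-fold, and Rab3il1 did not pass (-0.18, adjusted p = 0.513). The others of 16 ciliary genes taken from the study's text were not called. They were Flna (-0.92), Cep164 (-0.40), Ift20 (-0.12), Cep135 (-0.09), Pcm1 (-0.03), Kif3a (0.02), Tmem216 (0.09), Arl3 (0.09), Mks1 (0.15), Lztfl1 (0.17) and Bbip1 (0.54). The study's text names further ciliary genes that this set leaves out, among them Tubb3, which was higher in dB as given above. Under quantile normalization 8 ciliary genes were higher and 2 lower.

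**Figure D5:**
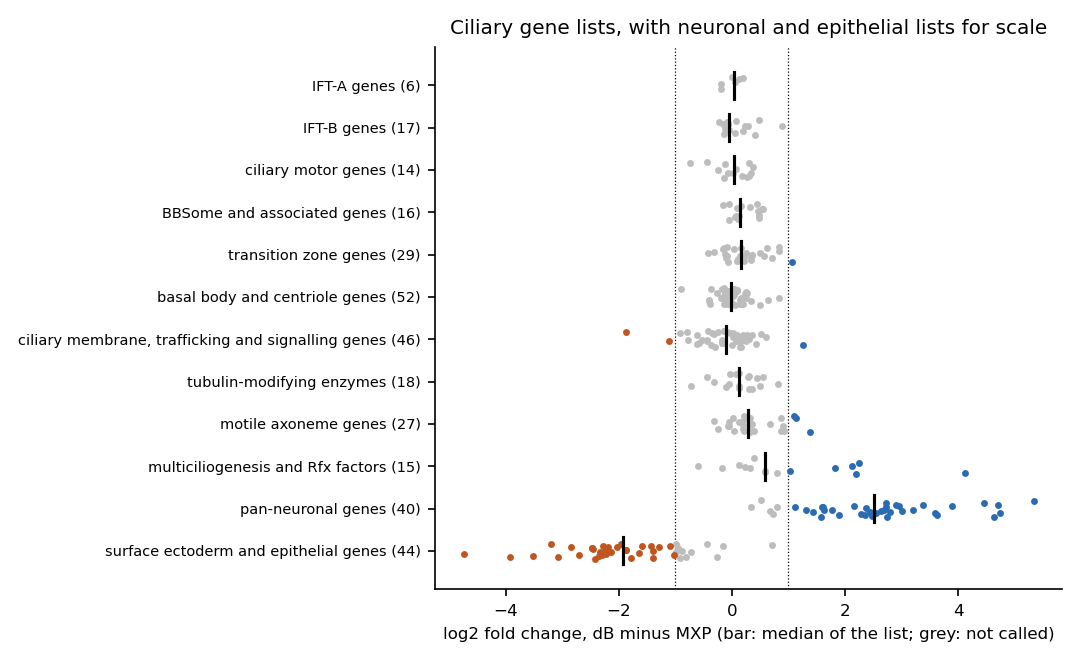
Log2 difference, dB minus MXP, of each tested gene (points) in the ciliary lists and, for scale, in the pan-neuronal and epithelial lists, with the median of each list as a bar, called genes coloured, the number tested in brackets and dotted lines at a 2-fold difference. Among the ciliary lists those of the transition zone, membrane, axoneme and multiciliogenesis hold called genes, and the others lie between -0.90 and 0.89.

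The letters GTTGCC, part of the X-box that Rfx factors bind, were in 10.4% of all promoters, 12.8% of those of genes higher in dB and 6.19% of those of genes lower in dB, and in 14 of 35 promoters (40%) of motile axoneme genes. Lrrc23 is printed as the called axoneme gene with the highest fitted difference, with its matches at -157 and -39 in capitals.
Lrrc23, chr6:124779728-124779977 on the minus strand: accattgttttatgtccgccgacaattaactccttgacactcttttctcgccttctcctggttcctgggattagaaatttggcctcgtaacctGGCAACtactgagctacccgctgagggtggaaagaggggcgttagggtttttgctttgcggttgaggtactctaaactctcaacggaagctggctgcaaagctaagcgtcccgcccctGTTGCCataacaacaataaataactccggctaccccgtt
Its level was 1.27 to 2.88 FPKM in dB and 0.0732 to 0.219 FPKM in MXP. The start of Mns1, another axoneme gene, also holds a match, and that gene had a difference of -0.32 (adjusted p = 0.182).

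The pools could hold other cell types as well. Over all genes 7.10% were higher in dB and 3.93% lower, and counts near these shares say little about a list. Of 31 endothelial genes 3 (9.68%) were higher in dB, Lyve1 (1.42), Mfsd2a (1.32) and Prox1 (1.05). The pan-endothelial genes Kdr (0.60), Cdh5 (0.14) and Pecam1 (-0.05) did not pass. The summed endothelial level was 227 to 302 FPKM in dB and 155 to 229 FPKM in MXP. Of 19 macrophage genes 2 (10.5%) were higher, Sall1 (2.87), which neural progenitors share with microglia, and Mrc1 (1.12). Their sum was 93.9 to 126 FPKM in dB and 52.9 to 71.2 FPKM in MXP. None of 17 globin and erythroid genes was called by limma (1 was higher without MXP 1 and MXP 5), 2 had an unadjusted p below 0.05, and their sum ranged from 12434 to 39412 FPKM in dB and from 11072 to 35905 FPKM in MXP. Of 11 mural genes Vtn (4.42) and Tagln (1.72) were higher and Pdgfrb (-1.26) and Des (-1.06) lower. Of 19 meningeal and head mesenchyme genes 4 were higher and 6 lower. The list ran from Aldh1a2 (-3.94) to Zic1 (6.08). Foxc1 (1.87), of the meninges, was higher, and Tbx15 (-2.61), of facial and body mesenchyme, was lower. In replicates 4 to 6 neither Foxc1 nor Tbx15 passed (limma adjusted p = 0.191 and 0.0785). Of 16 cranial ganglion, Schwann and pigment cell genes 5 were higher and 6 lower. Sox10, of crest and glia, was lower in dB (-2.93), where it reached at most 0.312 FPKM. Of 17 eye, lens, olfactory and pituitary placode genes 6 were higher, with Fezf1 (3.11) and Sp8 (2.97) first, and 4 lower, among them Mab21l1 (-1.36). Of 23 head muscle progenitor genes 6 were lower and 1, Pax7 (1.74), was higher, and without dB 4 and MXP 5, 3 were lower.

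Of 35 cell cycle genes 3 (8.57%) were higher, near the 7.10% of all genes. They were Ccnd1 (1.02) and the antiproliferative factors Btg2 (2.79) and Gadd45g (2.61), which neural progenitors use as they exit the cycle. Pcna (0.26, adjusted p = 0.376) and Cdk4 (adjusted p = 0.989) did not pass. Of 18 immediate early genes, which tissue handling can induce, Btg2 was higher and Klf4 (-1.51) lower. None of 24 glucose uptake and glycolysis genes was called by limma, with 6 at an unadjusted p below 0.05. None of 28 Hox genes was called by limma, with 0 at an unadjusted p below 0.05 (1 was lower without MXP 1 and MXP 5). The sum over the Hox list was 0.351 to 2.71 FPKM in dB and 0.539 to 4.81 FPKM in MXP. Genes were tested by their mean in any tissue, and so near 0 a 2-fold difference on the log2(FPKM + 1) scale was hardly possible. Of 32 imprinted genes 4 were higher and 3 lower, with Snrpn (2.85) and Plagl1 (1.92) first on the brain side and Asb4 (-1.86) and Peg10 (-1.40) on the face side. Snurf also was higher, but its model overlaps that of Snrpn and they share reads. Of 20 BAF chromatin subunits Actl6b (2.88), Dpf3 (1.20) and Smarcd3 (1.04), subunits of the neural complexes, were higher and Smarcd2 (-1.07) was lower.

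The difference between dB and MXP was then set against that between vB and MNP, 12 libraries that share none with the 11. It was tested as 1 contrast of the 2 differences, and 222 genes (1.59%) passed, 150 (1.08%) upward and 72 (0.517%) downward. Without vB 4, 324 genes passed, and with the sequencing run as a block 265. Hand2 was furthest, at 5.84 (SE 0.44, adjusted p = 5.74e-11), with 94.2 ± 11.8 FPKM (SD, n = 6) in MNP and 1.52 ± 3.10 FPKM (n = 5) in MXP. Hand1, Pitx1 and Cited1, all factors of the mandibular prominence, had contrasts of 4.01, 2.98 and 3.16, of which that of Pitx1 was 1.95 and did not pass (adjusted p = 0.326) with 0.1 added in place of 1. The growth factor Igf2 (3.44) was at 795 ± 122 FPKM in MNP and 227 ± 55.9 FPKM in MXP. On the other side stood Nkx2-1 (-4.92, SE 1.09, adjusted p = 0.00684), a ventral forebrain factor with 72.7 ± 39.9 FPKM in vB and 2.48 ± 2.13 FPKM in dB. Lhx8 (-3.43) and Lhx6 (-3.25) followed, with 17 ± 11 and 11.4 ± 7.75 FPKM in vB and 0.679 ± 0.834 and 0.931 ± 0.558 FPKM in dB. Stmn2, a neuronal protein, had a contrast of -3.66 and a level of 18.2 ± 8.11 FPKM in MXP against 1.12 ± 0.675 FPKM in MNP. Barx1, the gene furthest below 0 between dB and MXP among those without overlap, differed by -6.50 in the former and -6.54 in the latter, a contrast of 0.04 (adjusted p = 0.995).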

How the data were processed

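RNA of pooled CD1 tissue was sequenced by the authors as paired-end reads of 75 bases. The deposited tables hold 1 row for each UCSC transcript on mm10, with FPKM and coverage values that Cufflinks estimated. The authors name Bowtie2 and DESeq2 among the tools, and no source used here names the aligner or the Cufflinks version behind these FPKM values. FPKM was summed by gene symbol over 59055 transcripts and tested as log2(FPKM + 1) with limma 3.58.1 (R 4.3.3; trend and robust options) over all 35 libraries with 1 mean per tissue. Genes needed a mean of 1 FPKM in some tissue, p-values were adjusted by Benjamini-Hochberg, and calls needed an adjusted p below 0.05 and a 2-fold difference. The tables hold no read counts, so no count model was used. Deposited coverage served only to describe depth. Transcript shares were fitted by limma on the 11 libraries. The tests were checked on simulated data with known changes.

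The gene lists and comparisons were chosen with earlier results of these data known. Named genes are the 15 furthest each way without overlap. To these come up to 4 called members a list each way, with the 2 most abundant not called. Also named are 16 of the ciliary genes in the study's text and cell type markers. The last are the 6 furthest each way in the contrast with vB and MNP, and the 8 largest share differences. Other genes were named after their values were seen, and some that these rules name are not reported here. Promoters came from RefSeq GRCm38.p6, where 14 motifs were counted and those shown were chosen after the counts were seen, and exons from GENCODE M21. Alternatives were another added value, other filters and scalings, blocks by replicate number and by sequencing run, subsets of replicates, a test against 1.5-fold, and leaving out each library.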

Additional observations from a re-analysis of the deposited data

Results flagged for a closer look

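In 31 of 405 sets of values (7.65%), each set being the FPKM of 1 named gene in the libraries of 1 tissue, a single library lay apart from the others by Dixon's 95% criterion on the log2(FPKM + 1) scale. Chance marks about 1 in 20 such sets. The library MXP 5 did so in 9 and dB 4 in 10.

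In MXP 5 the brain factors Otx2 (2.49 FPKM), Zic1 (3.45), Sox1 (2.47), Hes5 (7.13), Olig2 (3.13), Nkx2-1 (7.92) and Fgf15 (2.00) were highest, Tubb5 was highest (1199) and Tubb3 lowest (24.2). In MXP 1 the mandibular factors Hand1 (2.23) and Hand2 (7.05) were highest and Prrx1 (143) lowest, and in MXP 3 Cep135 (5.57) was lowest. In dB 4 the lowest values were Cep164 (5.02), Dll1 (18.4), Scrt2 (4.98), Sema5b (12), Smarcd3 (15.2), Igf2 (77.2), Nbl1 (2.04), Rarg (3.92), Wnt6 (1.21) and Ephb3 (3.05). The library dB 2 was highest in Cdh11 (41.1), Dcc (19.6) and Zeb1 (23.9) and lowest in Mks1 (4.01), dB 5 lowest in Gap43 (43.6) and Stmn2 (65.9), dB 3 lowest in Rsph1 (1.55) and dB 6 highest in Capn6 (7.34).

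The difference dB minus MXP departed from vB minus MNP, by the limma contrast of the 2 differences, in Hand2 (5.84), Hand1 (4.01), Igf2 (3.44), Col8a2 (3.38), Cited1 (3.16) and Pitx1 (2.98), where it was the more positive, and in Nkx2-1 (-4.92), E030019B13Rik (-3.88), Stmn2 (-3.66), Lhx8 (-3.43), Lhx6 (-3.25) and Aldh1a3 (-3.11), where it was the more negative. They are the 6 furthest in each direction of the 222 that passed.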

How the results depend on the processing

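The 1538 calls became 2918 (1882 higher, 1036 lower) with 0.1 added and a filter of 0.1 FPKM, a pair of choices made after seeing the data, and 834 were lower with 0.1 added alone. Leaving out 1 library gave 1510 to 1581 genes, 930 to 1053 of them higher, and quantile normalization 852 and 700. Ciliary genes gave 17 higher with 0.1 added, 26 higher and 28 in all with the 0.1 filter as well, 1 lower from the most abundant transcript, and 4 lower without MXP 1 and MXP 5, a set left out after seeing the data. The contrast with vB and MNP gave 339 genes with both 0.1 choices, 22 in replicates 4 to 6 and 60 in a test against 1.5-fold. Transcript shares gave 388 at 10 points, 127 in replicates 1 to 3 and 6 in replicates 4 to 6, both subsets having fewer libraries. The cause of these changes was not tested.

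With the replicate number as a block, 1561 genes, 12 ciliary genes, 288 genes of the contrast and 143 transcripts passed. Same-numbered dB and MXP libraries correlated at 0.366, 0.447, 0.092, 0.287 and 0.184 in their deviations for numbers 1, 2, 3, 5 and 6, and 4 of the 5 MXP libraries correlated best with the dB library of their number. The correlation of 1 pair was below 0.1, and no label ties the number to a litter, so that the block was kept as an alternative. Under the block Tmem107 (0.976), Smarcd2 (-0.992) and Bcl11a (-0.927) came short of 2-fold. By the run names deposited with the tables, numbers 1, 2 and 3 each had a run of their own and dB 4 to 6 and MXP 5 and 6 shared 1. The libraries vB 4 and MNP 4 came from another run. With the run as a block no named gene lost or gained a call.

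Of 231 named genes 177 were called, none reversed, and 51 lost the call under some alternative. Without dB 4 this held for Bcl11a (-0.84), Dlx1 (-1.06), Dlx2 (-1.10), Dlx6 (-0.99), Jag2 (-0.999), Smarcd2 (-0.98) and Tmem107 (0.95). Without MXP 5 it held for Bmp6 (0.97), Des (-0.83), Dlx1 (-1.31), Dlx2 (-1.38), Dusp6 (-0.97) and Irx3 (-1.10). Single other libraries ended the calls of Bcl11a and Tmem107 (MXP 2), Des, Dlx6 and Smarcd3 (MXP 1), Smarcd3 (MXP 3), Ccnd1 (MXP 3, dB 1 and dB 2), Prox1 (MXP 6 and dB 2), Bmp7 and Mcin (dB 6), Dlx1 (MXP 6 and dB 5) and Irx3 (MXP 2, MXP 3, MXP 6, dB 2, dB 3 and dB 6). In replicates 4 to 6, 38 named genes lost the call, among them Hey2, Rest, Msx1, Snai1, Olig2, Sox9, Shh, Gli1 and Bmp4. In the test against 1.5-fold 29 did so, and in replicates 1 to 3, 11. Calls were gained by Col1a2 (-1.23, dB and MXP libraries alone), Flna (-1.02 without MXP 3 and also without dB 2, -1.04 without MXP 1 and MXP 5), Hand2 (-1.67, 0.1 added) and Nkx2-1 (1.62, replicates 1 to 3). Of the named contrasts with vB and MNP, those of Pitx1 (1.95 with 0.1 added, adjusted p = 0.0910 in replicates 1 to 3) and Cited1 (adjusted p = 0.0550 in replicates 1 to 3) lost their calls, and in replicates 4 to 6 so did those of Pitx1, Nkx2-1, Aldh1a3, Col8a2, E030019B13Rik, Igf2, Lhx6 and Lhx8. No read counts were used, so the counting error of low FPKM values is unknown.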
